A study of Mus musculus with 6 samples.

Results

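The 44 genes described here are type I interferon-stimulated genes, chosen by symbol from a fixed list and looked up among the 53379 Ensembl gene identifiers of a mouse regulatory T cell (Treg) RNA-seq series. All 44 were found, and all 44 passed the filter on low counts, with at least 41 reads in every library. The series holds 6 libraries of Tregs sorted by flow cytometry from C57BL/6 mice aged 3 months. In the 3 knockout libraries (KO, titled bKO) the mice had the genotype Foxp3YFP-CrexJunbFlox/Flox, in which Cre recombinase made from the Foxp3 gene acts on a floxed Junb gene. In the 3 wild-type libraries (WT) the genotype was Foxp3YFP-CrexJunb+/+, so the Cre allele was common to both groups. JunB is a subunit of the transcription factor AP-1. Cre made under Foxp3 is meant to act in cells that express that gene, and other cells in the sort would keep Junb. Neither the sorting gate nor whether a library came from 1 animal or from pooled animals is given in the sources used here, so a p-value here reflects only how far these 6 libraries scatter, which may be technical.

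Type I interferons are the alpha and beta interferons that cells release on sensing viral or misplaced nucleic acid. They bind a receptor of the chains IFNAR1 and IFNAR2, whose kinases JAK1 and TYK2 phosphorylate STAT proteins, STAT2 among them. A complex with IRF9 then binds a promoter element, the interferon-stimulated response element (ISRE), in front of genes that block virus replication. A low level of this programme, called tonic, is present in lymphocytes without infection, and in Tregs type I interferon is known to affect both numbers and suppressive function. In these Tregs the members were all detected, their level varied widely from library to library within a genotype, and no member passed the test of KO against WT, although 36 of the 44 means were lower in KO.

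The promoters of several members are shown first because the ISRE is the feature that ties the family together. Each window is RefSeq sequence of GRCm38.p6, from 250 bases before to 50 bases after an annotated start, printed 5′ to 3′ on the gene's own strand. Capitals mark matches to the ISRE core, GAAA and GAAA with any 2 bases between them, which on the other strand reads as TTTC and TTTC. Overlapping matches run together. The windows lie at chr4:156200769-156201068 (minus strand) for Isg15, chr19:34583279-34583578 and chr19:34607707-34608006 (plus strand) for the paralogs Ifit3 and Ifit3b, and chr5:120907476-120907775 (minus strand) for Oas1a. For the neighbours Rsad2 and Cmpk2, which face away from each other, they lie at chr12:26456403-26456702 (minus strand) and chr12:26468965-26469264 (plus strand). These 6 genes are shown as examples of windows with several matches, of a pair of paralogs, and of neighbours with and without a match.
Isg15: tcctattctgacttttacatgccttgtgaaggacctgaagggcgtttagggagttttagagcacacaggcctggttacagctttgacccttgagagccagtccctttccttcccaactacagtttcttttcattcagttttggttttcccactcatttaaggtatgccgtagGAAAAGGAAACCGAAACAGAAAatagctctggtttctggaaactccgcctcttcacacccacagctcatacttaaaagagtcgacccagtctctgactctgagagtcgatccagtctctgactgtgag
Ifit3: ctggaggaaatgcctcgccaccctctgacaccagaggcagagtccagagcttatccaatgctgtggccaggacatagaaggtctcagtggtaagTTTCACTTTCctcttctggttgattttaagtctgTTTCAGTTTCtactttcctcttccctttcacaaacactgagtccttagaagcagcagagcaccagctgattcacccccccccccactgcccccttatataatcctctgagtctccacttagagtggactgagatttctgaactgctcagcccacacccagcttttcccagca
Ifit3b: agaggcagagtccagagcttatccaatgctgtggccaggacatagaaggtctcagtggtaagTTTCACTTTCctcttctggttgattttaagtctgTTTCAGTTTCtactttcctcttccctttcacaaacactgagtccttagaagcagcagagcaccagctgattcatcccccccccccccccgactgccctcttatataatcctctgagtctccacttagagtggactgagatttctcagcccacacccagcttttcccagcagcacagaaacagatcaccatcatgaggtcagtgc
Oas1a: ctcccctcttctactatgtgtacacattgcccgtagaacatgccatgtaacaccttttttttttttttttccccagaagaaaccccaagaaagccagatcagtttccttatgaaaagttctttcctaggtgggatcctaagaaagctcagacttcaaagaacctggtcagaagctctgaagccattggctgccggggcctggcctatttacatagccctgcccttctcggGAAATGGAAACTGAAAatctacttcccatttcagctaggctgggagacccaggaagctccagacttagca
Rsad2: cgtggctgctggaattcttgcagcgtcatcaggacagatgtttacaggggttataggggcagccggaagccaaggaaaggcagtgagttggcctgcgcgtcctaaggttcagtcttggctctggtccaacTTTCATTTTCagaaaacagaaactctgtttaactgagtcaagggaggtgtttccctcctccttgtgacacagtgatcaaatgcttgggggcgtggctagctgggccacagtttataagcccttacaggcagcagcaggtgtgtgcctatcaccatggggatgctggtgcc
Cmpk2: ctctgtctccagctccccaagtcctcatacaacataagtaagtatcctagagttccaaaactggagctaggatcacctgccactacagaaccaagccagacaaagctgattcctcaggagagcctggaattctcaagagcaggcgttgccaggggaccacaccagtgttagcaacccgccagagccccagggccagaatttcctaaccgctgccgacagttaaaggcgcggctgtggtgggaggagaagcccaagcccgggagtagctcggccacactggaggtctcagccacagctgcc
Isg15 held 3 overlapping matches, Oas1a 2 overlapping ones, Ifit3 and Ifit3b 2 separate ones each, Rsad2 1 and Cmpk2 0. The windows of Ifi44, Oasl2 and Oasl1, which are among the members with the widest range between libraries, also held 0. Over aligned bases the Ifit3 and Ifit3b windows were identical at 258 of 260 positions. Of the 44 members 33 had at least 1 window in the table, 38 windows in all, and 11 had none and are described by expression alone.

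The ISRE core was found in 20 of the 38 member windows (52.6%), against 1131 of all 32851 windows of that length (3.44%). In genes, 18 of the 33 members held it, or 54.5%, against 3.99% of the 27025 genes with a window. The gamma-activated sequence, GAS (TTCNNNGAA), a promoter element of interferon gamma responses, matched 6 of 38 member windows (15.8%) and 8.3% of all windows. The AP-1 site TGANTCA, the kind of sequence that JunB dimers bind, matched 10 of 38 (26.3%) and 7.81% of all. Both strands were searched for each motif. A match describes letters in a window and is no measured binding site, and the windows are not independent, since paralogs share sequence and some genes have more than 1 window.

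**Figure D1:**
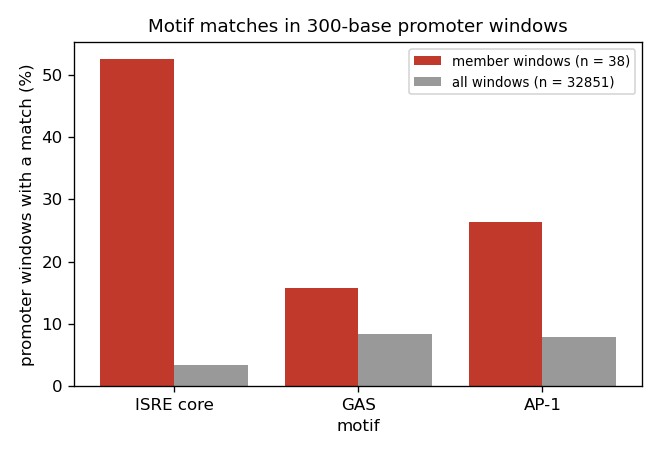
Share of 300-base promoter windows (vertical axis, %) with at least 1 match to each of 3 motifs, in the 38 member windows and in all 32851 windows. The ISRE core stands at 52.6% of member windows and 3.44% of all windows.

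Levels are given as CPM, counts scaled to a common library size. Library totals lay between 33784183 and 41231173 counts. Junb was at 57.1, 57.3 and 49.6 CPM in KO 1 to 3, against 87.1, 77.5 and 89.5 CPM in WT 1 to 3, so the genotypes did not overlap, and the KO to WT ratio was 0.645 (edgeR's quasi-likelihood test, unadjusted p = 0.00163, Benjamini-Hochberg adjusted p = 0.9999; DESeq2, adjusted p = 0.00417). T cell markers such as Trac and Cd3d, and the Treg factor Foxp3, were present in every library. Of 12 Treg markers 11 had a lower mean in KO, with a median log2 difference of -0.44, and their summed level was 1168, 2042 and 2754 CPM in KO 1 to 3, against 2843, 2500 and 2911 CPM in WT 1 to 3. KO 1 stood apart as the lowest, and KO 2 also lay below every WT library. Of 11 general T cell markers 10 had a lower mean in KO, with a median of -0.17. Markers of B cells, which a pure Treg sort should lack, summed to 9669, 13374 and 4962 CPM in KO 1 to 3, against 5033, 16001 and 3113 CPM in WT 1 to 3 over 15 genes, and 14 of the 15 had a higher mean in KO. None of the 15 was at 0 in any library. Of the myeloid markers 18 of the 19 tested had a higher mean in KO, with sums of 1128, 1508 and 668 CPM in KO 1 to 3, against 433, 1383 and 280.2 CPM in WT 1 to 3; Cd14, Itgax and C1qa were at 0 in WT 3, and C1qa also in KO 1. Conventional CD4 T cell markers had a higher mean in KO for 11 of 12 genes, with sums of 2629, 2242 and 1680 CPM in KO 1 to 3, against 2033, 1820 and 1578 CPM in WT 1 to 3. Of 13 CD8 T and NK cell markers 11 had a higher mean in KO. Their sums were 461.8, 327.6 and 459.5 CPM in KO 1 to 3, against 227.4, 419.7 and 193.1 CPM in WT 1 to 3. Red cell and platelet markers summed to 7742, 1651 and 79.5 CPM in KO 1 to 3, against 111, 421 and 2804 CPM in WT 1 to 3. Libraries KO 2, WT 1 and WT 2 have deposited tables whose names share 1 number, and KO 1, KO 3 and WT 3 share another. The labels do not say what that number stands for, so it is called the table number here.

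Members differed widely in level. As reads per kilobase of exon and scaled to library size (RPKM), averaged over the 6 libraries, Ifi27l2a stood highest at 612, followed by Ly6e at 329 and Slfn2 at 306. By genotype the RPKM of Ifi27l2a was 529.8 ± 112 in KO and 693 ± 55.7 in WT, that of Ly6e 319.6 ± 46.03 in KO and 338 ± 39.7 in WT, and that of Slfn2 289 ± 1.75 in KO and 323 ± 35.4 in WT (SD, n = 3 each). Ly6e and Slfn2 did not differ beyond their spread. Phf11b (103), Slfn1 (87.5) and Bst2 (84.5) came next, within each other's spread. At the other end were Ifi44 at 0.63, Oas2 at 1.69, Oasl1 at 1.98 and Mx1 at 1.99 RPKM. The abundant members thus include the small protein Ifi27l2a, the glycolipid-anchored surface protein Ly6e, which modulates virus entry, and schlafens, which are tied to lymphocyte quiescence. The RNAs of Oas2 and Mx1, often used to read an interferon response, were among the least abundant.

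These genes differed widely between libraries of the same genotype. WT 2 was the highest of the 6 libraries for 29 of the 44 members, where it was highest for 17.1% of the 20475 genes tested. WT 3 was the lowest for 18 members (19.9% of all genes) and KO 1 for 15 (19.3%). WT 2 exceeded WT 3 in 40 of 44 members, or 90.9%, against 50.0% of all genes, with a median log2 gap of 0.67 over the members. Summed over the members, expression was 3948, 4868 and 4829 CPM in KO 1 to 3, against 5081, 5757 and 4334 CPM in WT 1 to 3. KO 1 and WT 3 had the lowest sums and WT 2 the highest, so the genotypes overlapped. The range within WT exceeded the difference between genotypes for 40 of 44 members, close to the 87.7% of all genes.

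Members did not share this spread equally. Between the highest and the lowest library 12 members differed by more than 3-fold: Ifit3b, Ifi44, Oasl2, Oas2, Oasl1, Ifit3, Ifit1, Rsad2, Dhx58, Oas3, Oas1a and Cmpk2. Ifit3b had the widest range, at 7.50, 15.7 and 9.51 CPM in KO 1 to 3, against 19.4, 38.2 and 4.39 CPM in WT 1 to 3. WT 2 held 8.7 times the Ifit3b level of WT 3, and the KO libraries lay between them. For 8 members, Dtx3l, Irf9, Slfn2, Herc6, Slfn1, Ifi203, Samhd1 and Ly6e, the range was under 1.5-fold. With 0.5 CPM added to every value, the median range was 1.84-fold, close to the 1.91-fold of all genes tested. Without that addition, the 18 members with an ISRE core in a window had a median range of 1.89-fold and a median WT 2 to WT 3 log2 gap of 0.73, the 15 without had 1.76-fold and 0.31, and the 11 with no window had 1.83-fold and 0.80. Ranges of single members ran from 1.33-fold to 8.7-fold with a match and from 1.18-fold to 7.74-fold without, so these groups overlapped almost fully.

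**Figure D2:**
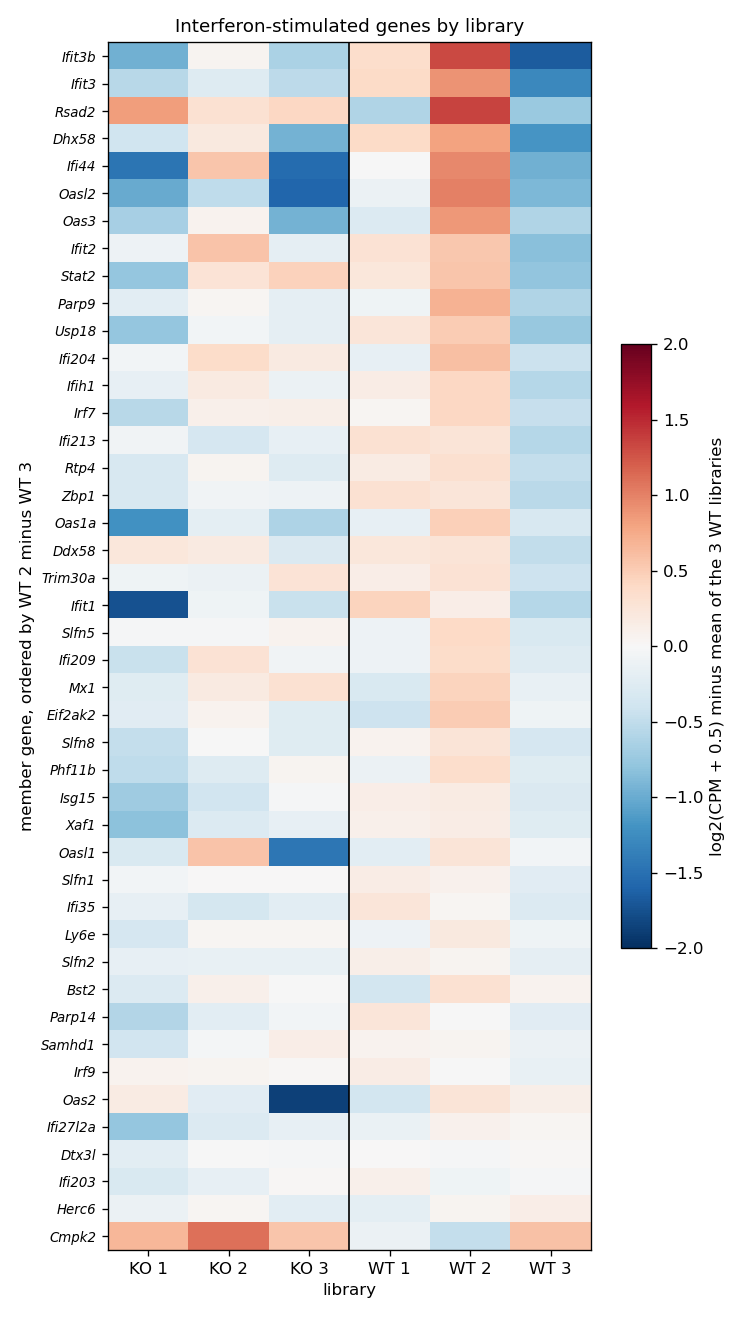
Level of each of the 44 members (rows) in each library (columns, KO left of WT), as log2(CPM + 0.5) minus the gene's mean over the 3 WT libraries. The WT 2 column is highest for 29 members and the WT 3 column lowest for 18, and Cmpk2, in the bottom row, is lowest in WT 2.

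The order of libraries followed the table number for many members. In 16 of 44 members, KO 2, WT 1 and WT 2 all lay above KO 1, KO 3 and WT 3, or 36.4%, against 8.31% of all genes. The reverse was seen for 0 members, against 9.78% of all genes. Those 16 were Ifit1, Ifit2, Ifit3, Ifit3b, Oas1a, Oas3, Oasl2, Usp18, Ifi44, Ifih1, Dhx58, Rtp4, Zbp1, Parp9, Slfn2 and Slfn8. Of 85 other tested interferon-stimulated genes, 18 had this order and 1 the reverse. Table number and genotype are not balanced. This order puts 2 WT libraries and 1 KO library on top, so a lower level in KO would also favour it over the reverse. The parts of genotype and table number in these counts cannot be told apart. The mean log2(CPM + 0.5) over the members was 5.75 in KO 2, against 5.75 and 6.09 in WT 1 and WT 2, and it was 5.34 and 5.47 in KO 1 and KO 3, against 5.32 in WT 3.

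WT 2 was also the library with most B cell marker RNA and the second highest in myeloid markers. WT 1, second in summed member level, had 5033 CPM of B cell markers, less than KO 1. By mean log2 level over the members, KO 2 (5.752) and WT 1 (5.746) were nearly equal. KO 2 was second highest in B cell markers (13374 CPM) and highest in myeloid markers (1508 CPM). WT 3 had the lowest mean level (5.324) and the lowest B cell (3113 CPM) and myeloid (280.2 CPM) sums. KO 1 had nearly as low a mean level (5.343), with 9669 CPM of B cell markers. Plasmacytoid dendritic cells are the main makers of interferon alpha. Of their 11 markers, of which Bst2 is also a member here, 9 had a higher mean in KO and 2 a lower one. The 11 markers summed to 218, 301 and 222 CPM in KO 1 to 3, against 162, 312 and 171 CPM in WT 1 to 3. The most specific of them, Siglech, was at 10.2, 11.1 and 29.6 CPM in KO 1 to 3, against 1.68, 8.27 and 3.15 CPM in WT 1 to 3. The part of such cells, or of the table number, in the level of the members was not tested. In RNA of bulk samples, fewer cells of a type and less RNA per cell cannot be told apart.

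**Figure D3:**
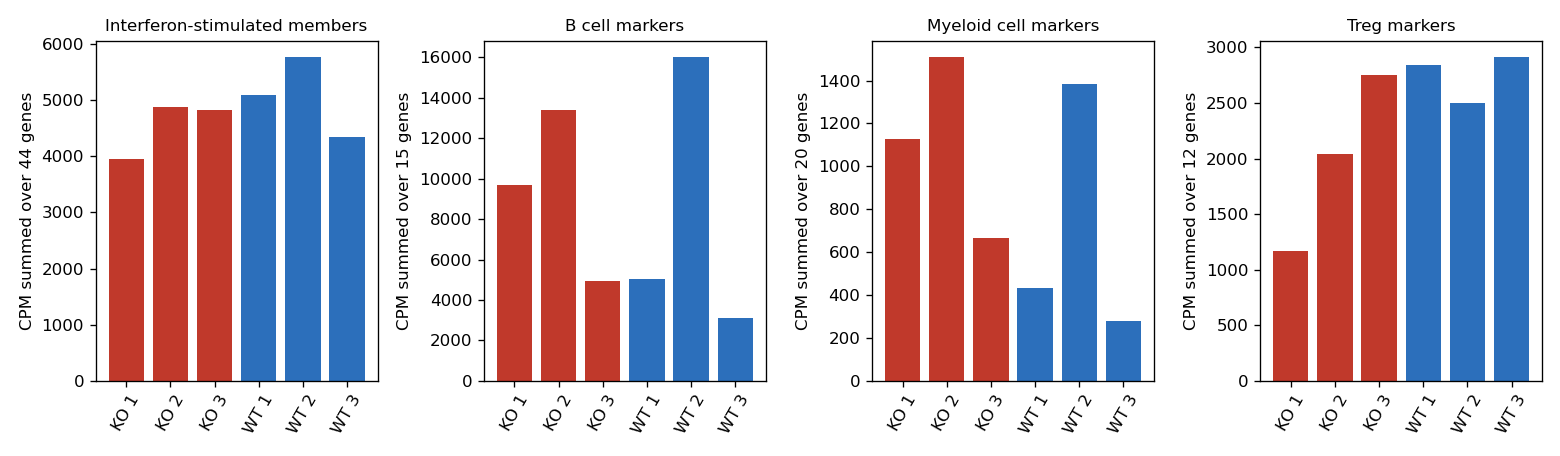
Summed CPM in each library (bars, KO left of WT, 1 value per library and no error) of the 44 members, 15 B cell markers, 20 myeloid markers and 12 Treg markers. WT 2 is highest for the members (5757 CPM) and for B cell markers (16001 CPM), and KO 1 is lowest for the members and for Treg markers.

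The comparison of KO with WT asks whether these genes depend on JunB in Tregs. By mean, 36 of the 44 members were lower in KO, or 81.8%, against 49.1% of all genes tested. Treg markers were lower by mean in the same libraries (11 of 12), and their part in this count was not tested. The median log2 difference, KO minus WT, was -0.19, against 0.0055 over all genes, and single members ran from -1.22 for Oasl2 to 0.76 for Cmpk2. By edgeR's quasi-likelihood test 0 members passed an adjusted p of 0.05, as did 0 of 20475 genes (0%). At an unadjusted p under 0.05 there were 0 members, against 590 of all genes (2.88%), and the smallest unadjusted p of a member was 0.0577. DESeq2 called 0 members and 63 genes, or 0.272% of the genes it could call, and limma-voom called 0 of both. A p above the threshold does not show that the genotypes were alike. Libraries of the genotypes did not overlap for 1 member, lower in KO, where 4.07% of all genes were lower in KO without overlap and 3.68% higher.

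How many means were lower depended on single libraries and on the table number. Without WT 2, 26 of 44 members had a lower mean and the median was -0.055. With the table number as a term in the fit the values were again 26 of 44, with a median of -0.058. Without WT 3, the low WT library, they were 43 of 44 and -0.33, and without KO 1 they were 31 of 44 and -0.13. Among KO 2, WT 1 and WT 2, 33 members were lower in KO with a median of -0.18. Of all genes 48.3% were lower there, with a median of 0.013. Among KO 1, KO 3 and WT 3, 19 members were lower in KO and 25 higher, with a median of 0.025. Of all genes 52.2% were lower there, with a median of -0.025. Each of these contrasts rests on 1 library of a genotype, KO 2 alone in the first and WT 3 alone in the second.

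**Figure D4:**
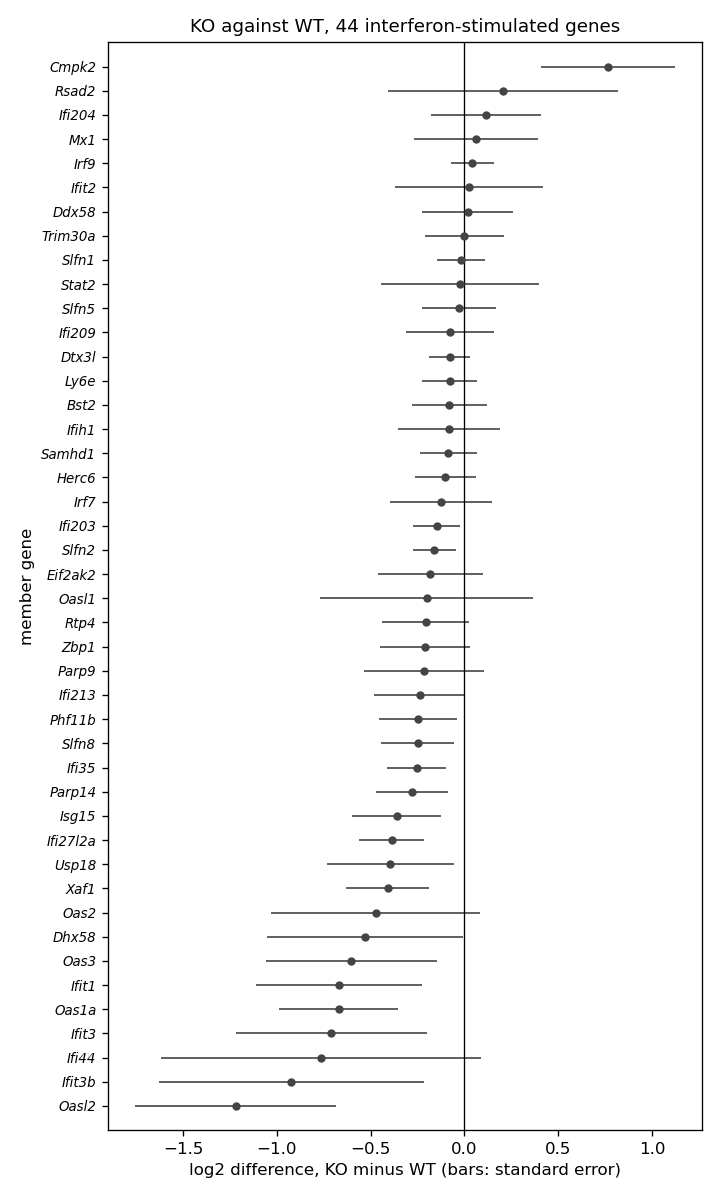
Log2 difference, KO minus WT, of each of the 44 members (points) with its standard error (bars) from the edgeR fit over 3 KO and 3 WT libraries. Of the 44 points 36 lie below 0, from -1.22 for Oasl2, and no member passes an adjusted p of 0.05.

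The transcription factors of the response had nearly equal means in both genotypes. Irf9, the DNA-binding subunit of the complex that binds the ISRE, was at 143, 142 and 139 CPM in KO 1 to 3, against 151, 136 and 124 CPM in WT 1 to 3. The 3 KO libraries lay close together inside the WT range, and the log2 difference was 0.043 (SE 0.12). Stat2, a subunit of the same complex, was at 29.3, 60.9 and 69.8 CPM in KO 1 to 3, against 59.4, 74 and 29.1 CPM in WT 1 to 3. KO 1 and WT 3 were alike and far below the other 4 libraries, so each genotype held a low library, and the log2 difference was -0.022 (SE 0.42). Irf7, the factor that amplifies interferon alpha production, was at 70.5, 112 and 112 CPM in KO 1 to 3, against 107, 139 and 75.01 CPM in WT 1 to 3, again lowest in KO 1 and WT 3, with a log2 difference of -0.13 (SE 0.27).

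Among ISG15 and its machinery all 3 members had lower means in KO, with overlap. Isg15, a ubiquitin-like protein that is joined to other proteins in the response, was at 18.6, 23.6 and 30.4 CPM in KO 1 to 3, against 33.8, 34.5 and 25.1 CPM in WT 1 to 3. KO 3 exceeded WT 3, and the log2 difference was -0.36 (SE 0.24), or -0.21 without KO 1 and -0.56 without KO 3. Usp18, the protease that removes ISG15 and also dampens signalling at IFNAR2, was at 52.5, 87.2 and 79.98 CPM in KO 1 to 3, against 107, 128 and 53.4 CPM in WT 1 to 3. WT 3 was as low as KO 1, and the difference was -0.39 (SE 0.34). It was -0.13 without WT 2, -0.69 without WT 3, -0.21 without KO 1 and -0.062 with the table number as a term. Herc6, the mouse ligase that attaches ISG15, hardly differed between libraries, with means of 31.8 ± 2.75 CPM in KO and 34.1 ± 4.01 CPM in WT (SD, n = 3 each).

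The IFIT genes, which lie together on chromosome 19 and encode proteins that bind foreign RNA and block its translation, held some of the largest differences in mean, with large standard errors. Ifit1 was at 16.1, 51.98 and 40.1 CPM in KO 1 to 3, against 74.9, 60.2 and 36.8 CPM in WT 1 to 3. KO 1 was by far the lowest library and WT 3 lay below both other KO libraries, with a log2 difference of -0.67 (SE 0.45). It was -0.32 without KO 1, -0.43 without WT 1, -1.03 without KO 2 and -0.38 with the table number as a term. Ifit3 was at 15.3, 19.02 and 15.7 CPM in KO 1 to 3, against 29.9, 42.9 and 9.02 CPM in WT 1 to 3. Its WT libraries lay on both sides of all 3 KO libraries, as did those of Ifit3b. Ifit2, from the same cluster, ran from 19.4 to 32.8 CPM in KO and from 12.1 to 32.5 CPM in WT, with a difference of 0.024. Of the 50-base stretches in Ifit3 transcripts 51.2% also occur in transcripts of another gene, mainly Ifit3b, and for Ifit3b the share was 45%. Reads of that length could not be told apart there, so the split of counts between these paralogs is uncertain. Eif2ak2, the kinase PKR that halts translation on sensing double-stranded RNA, had means of 19.01 ± 2.48 CPM in KO and 21.6 ± 7.33 CPM in WT.

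All 5 OAS genes, which lie on chromosome 5, had lower means in KO and none passed the test. The OAS enzymes make the oligoadenylates that activate RNase L. Oasl2 (ENSMUSG00000029561.17), an OAS-like protein with the smallest p of the members, was at 9.54, 13.7 and 6.22 CPM in KO 1 to 3, against 18.1, 40.2 and 10.3 CPM in WT 1 to 3. WT 3 lay below KO 2, so the groups overlapped, and the log2 difference was -1.22 (SE 0.54), with an unadjusted p of 0.0577 and an adjusted p of 0.9999 by edgeR. Without WT 2 that difference was -0.53, and with the table number as a term -0.74. Oas1a was at 20.3, 41.5 and 30.8 CPM in KO 1 to 3, against 42.6, 66.5 and 38.3 CPM in WT 1 to 3. WT 3 lay below KO 2 here as well, and the difference was -0.67 (SE 0.32). It was -0.39 without WT 2 and -0.45 without KO 1. Of Oas1a, 57.6% of the 50-base stretches occur in other genes, mainly Oas1g. Oas3 ran from 12.3 to 25.3 CPM in KO and from 15.7 to 44.3 CPM in WT. Oas2 and Oasl1 were lowest in KO 3, at 1.99 and 1.70 CPM, and the other KO libraries of Oas2 lay within its WT range.

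The other direct antiviral effectors were mixed. Cmpk2 (ENSMUSG00000020638.8), a mitochondrial nucleotide kinase, had the largest difference upward. It was at 12.2, 16.8 and 11.3 CPM in KO 1 to 3, against 6.88, 5.26 and 11.6 CPM in WT 1 to 3. KO 3 lay just below WT 3, the other KO libraries lay above all of WT, and the log2 difference was 0.76 (SE 0.36), with an unadjusted p of 0.0705 and an adjusted p of 0.9999 by edgeR. Cmpk2 was lowest in WT 2, the library in which 29 members were highest. Rsad2 (viperin), its neighbour on chromosome 12, makes a nucleotide that ends virus RNA chains and was at 13.7, 9.28 and 10.1 CPM in KO 1 to 3, against 4.74, 19.7 and 4.24 CPM in WT 1 to 3. Rsad2 was thus highest in WT 2 and lowest in WT 3 and WT 1, with all KO libraries between them. Both neighbours had a higher mean in KO and were low in WT 1, and they ran opposite in WT 2 and WT 3. On the log2(CPM + 0.5) scale Cmpk2 differed by 1.41 among KO 2, WT 1 and WT 2 and by 0.024 among KO 1, KO 3 and WT 3, while Rsad2 differed by -0.072 and 1.37. The remaining effectors overlapped between genotypes. Mx1 RNA had means of 7.71 ± 1.54 CPM in KO and 7.39 ± 2.28 CPM in WT. The surface tether Bst2 had 74.2 ± 9.87 CPM in KO and 78.4 ± 17.8 CPM in WT. Samhd1, which depletes the nucleotides needed for reverse transcription, was at 272, 344 and 389.5 CPM in KO 1 to 3, against 373, 367 and 326 CPM in WT 1 to 3.

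**Figure D5:**
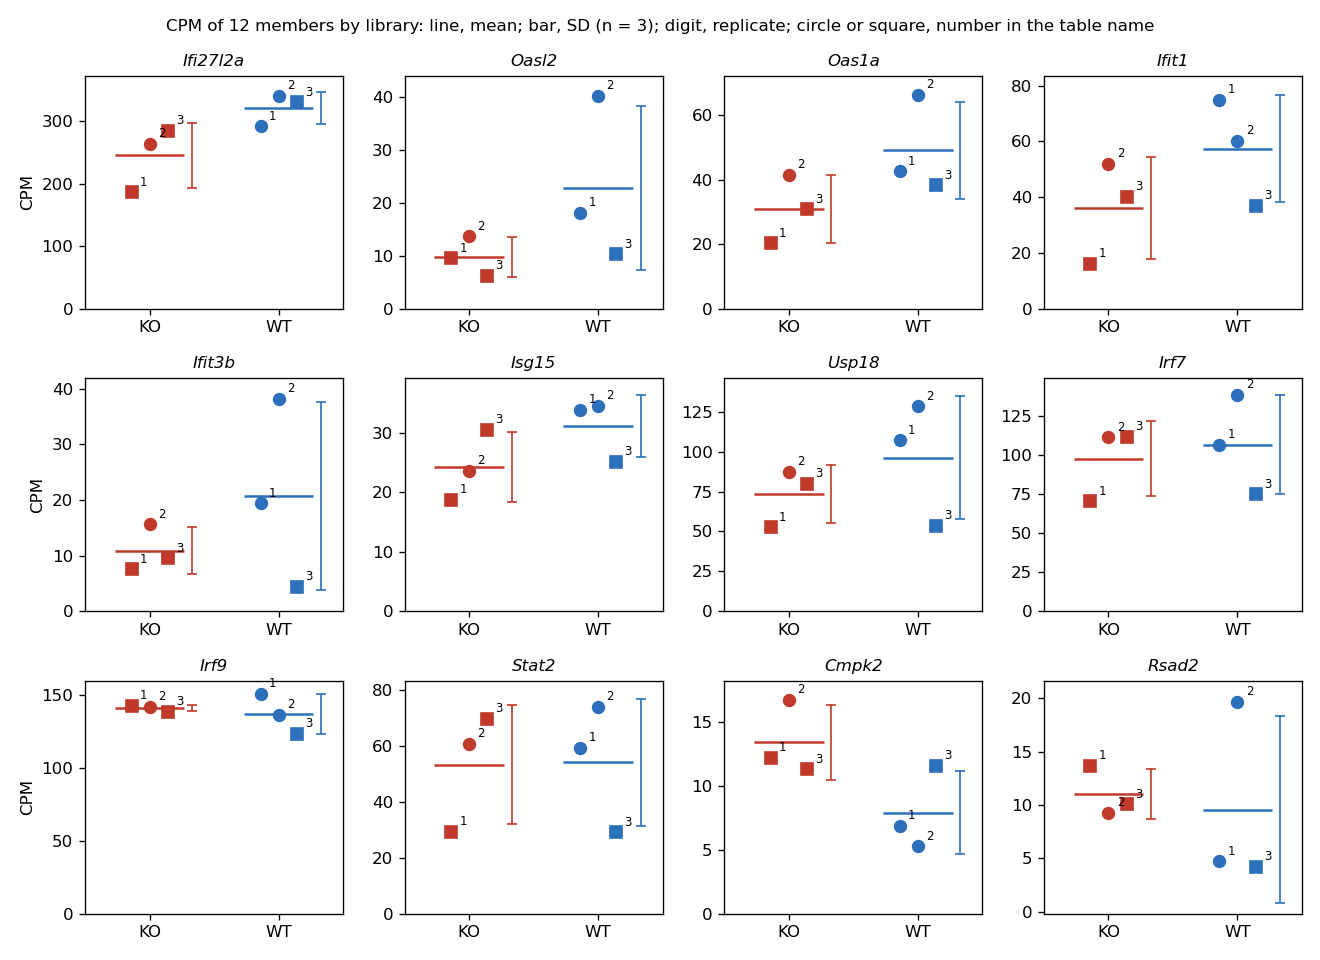
CPM of 12 members in each library (points, digit for the replicate; circles for tables KO 2, WT 1 and WT 2, squares for the others), with the mean (line) and SD (bar, n = 3) of KO, left, and WT, right. Ifi27l2a is the 1 member with no overlap, and WT 3 lies among or below the KO libraries in the other 11 panels.

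Of 8 nucleic acid sensors and PYHIN genes 6 had lower means in KO, with a median log2 difference of -0.12. The RNA sensors MDA5 (Ifih1), RIG-I (Ddx58) and LGP2 (Dhx58) detect virus RNA in the cytosol. Ifih1 had means of 29.9 ± 4.02 CPM in KO and 31.6 ± 10.3 CPM in WT, and Ddx58 had 62.6 ± 11.6 CPM in KO and 61.9 ± 16.5 CPM in WT. Dhx58 varied more, at 22.7, 34.6 and 15.4 CPM in KO 1 to 3, against 39.1, 52.95 and 12.96 CPM in WT 1 to 3, with its highest and lowest values both in WT. Zbp1, a sensor of Z-form nucleic acid, had means of 44.9 ± 4.31 CPM in KO and 51.9 ± 15.3 CPM in WT. The PYHIN genes on chromosome 1 encode DNA-binding proteins of the inflammasome and interferon pathways. Ifi203, the most abundant, was at 187, 206 and 235 CPM in KO 1 to 3, against 249, 219 and 228 CPM in WT 1 to 3. KO 3 lay inside the WT range and KO 1 was lowest, with a difference of -0.15 (SE 0.12). Ifi209 was at 118, 195 and 152 CPM in KO 1 to 3, against 149, 207 and 134 CPM in WT 1 to 3, with both ranges alike. Ifi204 and Ifi213 differed by 0.11 and -0.24 on the log2 scale, and their libraries overlapped. Ifi209 shares 33.7% of its 50-base stretches with other genes, mainly Ifi214, so its counts carry the same uncertainty.

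Parp9, Dtx3l and Parp14 lie side by side on chromosome 16 and encode ADP-ribosyltransferases and a ubiquitin ligase partner that act in interferon signalling and repair. Dtx3l, the ligase, was the steadiest member, with means of 107 ± 8.66 CPM in KO and 113 ± 2.05 CPM in WT. Parp9, whose exons overlap those of Dtx3l on the other strand, was highest in WT 2 at 77.6 CPM and lowest in WT 3 at 31.1 CPM. Parp14 had means of 60.4 ± 11.02 CPM in KO and 73.3 ± 12.01 CPM in WT, a difference of -0.28 (SE 0.19).

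The schlafens, a family on chromosome 11 tied to T cell quiescence and virus restriction, included abundant members and differed little between genotypes. Slfn2, whose loss in mice ends T cell quiescence, was at 478, 483 and 483 CPM in KO 1 to 3, against 583, 559 and 471 CPM in WT 1 to 3. The KO libraries agreed to within 1.01-fold and lay above WT 3 and below WT 1 and WT 2, with a difference of -0.16 (SE 0.11). Slfn1 was at 158, 164 and 165 CPM in KO 1 to 3, against 180.3, 173 and 139 CPM in WT 1 to 3, and the KO values again lay inside the WT range. Slfn5 and Slfn8 had means of 52.01 ± 1.94 CPM in KO and 53.01 ± 13.8 CPM in WT, and of 88.1 ± 14.4 CPM in KO and 105 ± 21.02 CPM in WT.

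Ifi27l2a (ENSMUSG00000079017.3), a small hydrophobic interferon-induced protein, lies at chr12:103442167-103443680 on the minus strand and was the member whose genotypes did not overlap. It was at 186, 264 and 285 CPM in KO 1 to 3, against 292, 341 and 330.2 CPM in WT 1 to 3. Its highest KO library, KO 3, was just under its lowest WT library, WT 1. The log2 difference was -0.39 (SE 0.17), a KO to WT ratio of 0.764, with an unadjusted p of 0.0625 and an adjusted p of 0.9999 by edgeR. A two-sided exact permutation test gave p = 0.1, and with 3 libraries a group no smaller value is possible. Any gene without overlap gives this same value, so the test adds nothing to the lack of overlap. The difference was -0.26 on the log2(CPM + 0.5) scale among KO 2, WT 1 and WT 2, and -0.52 among KO 1, KO 3 and WT 3. Without overlap between genotypes, a value below 0 under either table number was fixed in advance and adds no separate support. KO 1, the library lowest in Treg markers, was also the lowest for Ifi27l2a, and without it the difference was -0.23.

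Most of the remaining members had lower means in KO and overlapping libraries. Ly6e was at 1008, 1309 and 1311 CPM in KO 1 to 3, against 1184, 1451 and 1198 CPM in WT 1 to 3, and KO 1 was lowest. Trim30a, a regulator of NF-kappaB signalling, was at 120.4, 118 and 154 CPM in KO 1 to 3, against 140.5, 156 and 95.5 CPM in WT 1 to 3, with equal means in both genotypes. Phf11b was at 91.02, 108 and 135 CPM in KO 1 to 3, against 119.7, 166 and 110.3 CPM in WT 1 to 3, and 47% of its 50-base stretches occur in related genes such as Phf11a. Xaf1, a partner of the apoptosis inhibitor XIAP, was at 22.4, 33.3 and 35.7 CPM in KO 1 to 3, against 43.1, 44.6 and 33.7 CPM in WT 1 to 3. KO 3 exceeded WT 3, with a difference of -0.41 (SE 0.22), or -0.23 without KO 1. Ifi35, a partner of NMI, was at 101, 87.96 and 97.3 CPM in KO 1 to 3, against 133, 115 and 93.1 CPM in WT 1 to 3. WT 3 lay below KO 1 and KO 3, with a difference of -0.26 (SE 0.16), or -0.13 without WT 1 and -0.39 without WT 3. Rtp4, a chaperone that restrains the response, had means of 61.2 ± 8.89 CPM in KO and 70.7 ± 19.3 CPM in WT, and Ifi44, the scarcest member, had 2.86 ± 2.96 CPM in KO and 4.86 ± 3.40 CPM in WT.

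Upstream of these genes, interferon itself was near the limit of detection. The 15 interferon alpha and beta genes had 1 count in KO 2 and 13 in WT 2, over 7 genes, and 0 in the other 4 libraries. Ifnb1 had 0 counts in every library. Interferon alpha genes are near-identical, so 1 read may be counted at several of them. Of other type I interferons Ifnk had 13 counts in WT 1 and 0 elsewhere, and Ifnz had 1, 7 and 3 counts in KO 1 to 3, against 9, 1 and 1 in WT 1 to 3. Counts this low do not rank the libraries, and their link to the level of the members was not tested. Ifng, the type II interferon, was at 1.91, 4.66 and 10.99 CPM in KO 1 to 3, against 3.82, 3.42 and 4.76 CPM in WT 1 to 3, with both extremes in KO.

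The receptor and its kinases were present at moderate levels. Of 10 tested genes for receptors, kinases and STATs, 5 had a higher and 5 a lower mean in KO, and edgeR called 0 of them. Ifnar1 and Ifnar2, the receptor chains, had means of 75.9 ± 15.1 CPM in KO and 71.4 ± 5.27 CPM in WT, and of 46.98 ± 5.26 CPM in KO and 53.7 ± 4.48 CPM in WT. Tyk2 was at 55.8, 51.98 and 65.8 CPM in KO 1 to 3, against 83.8, 67.6 and 64 CPM in WT 1 to 3, and Jak1 was at 404, 429 and 390.4 CPM in KO 1 to 3, against 413, 363 and 418 CPM in WT 1 to 3. Both genes overlapped between genotypes. Jak2, which serves the interferon gamma receptor and not IFNAR, did not overlap, at 45.8, 46.7 and 42.7 CPM in KO 1 to 3, against 70.7, 66.5 and 69.6 CPM in WT 1 to 3, and was called by DESeq2 (adjusted p = 0.000258) but not by edgeR (adjusted p = 0.9999).

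Of 9 negative regulators 7 had lower and 2 higher means in KO, and 0 passed by edgeR. Socs3, a cytokine-induced inhibitor of JAK kinases, was at 52.4, 47.9 and 43.7 CPM in KO 1 to 3, against 66.7, 50.6 and 56.4 CPM in WT 1 to 3, with a difference of -0.27 (SE 0.15). Ptpn1, a phosphatase of JAK2 and TYK2, was at 121, 134 and 151 CPM in KO 1 to 3, against 174, 178 and 129.7 CPM in WT 1 to 3, with a difference of -0.25 (SE 0.16). Ptpn6 (SHP-1), the most abundant, was at 225, 266 and 191 CPM in KO 1 to 3, against 202, 292 and 188 CPM in WT 1 to 3, and the libraries of all 3 genes overlapped. Of 7 other interferon regulatory factors 3 had higher and 4 lower means. Irf1 was at 222, 235 and 284 CPM in KO 1 to 3, against 288, 259 and 188 CPM in WT 1 to 3, with a difference of 0.012. Irf8, a factor of B and myeloid cells as well, was at 57.8, 81.3 and 77.8 CPM in KO 1 to 3, against 24.7, 107 and 25.9 CPM in WT 1 to 3, highest in WT 2 and lowest in the other WT libraries. Irf4, which Tregs need for part of their effector programme, was at 11.7, 39.3 and 25.4 CPM in KO 1 to 3, against 38.2, 30.99 and 25.6 CPM in WT 1 to 3, with overlap. Irf2, which can repress ISRE-driven genes, was at 93.8, 114 and 114 CPM in KO 1 to 3, against 137, 158 and 74.4 CPM in WT 1 to 3. Of 19 tested genes of nucleic acid sensing 11 had higher and 8 lower means, with a median of 0.009. The adaptor Ticam1 had the smallest unadjusted p among them, 0.0366, at 7.29, 11.3 and 6.87 CPM in KO 1 to 3, against 10.1, 19.5 and 17.9 CPM in WT 1 to 3. Tmem173, the gene of the DNA-sensing adaptor STING, was at 121, 178 and 180.1 CPM in KO 1 to 3, against 185, 199.5 and 176 CPM in WT 1 to 3. Ikbke, a kinase that phosphorylates IRF3 and IRF7, was at 143, 111 and 142 CPM in KO 1 to 3, against 174, 121 and 145 CPM in WT 1 to 3, with overlapping libraries.

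Interferon-stimulated genes outside the 44 were also measured. Of 85 tested 52 had lower and 33 higher means in KO, or 61.2% lower, with a median log2 difference of -0.05, and edgeR and DESeq2 called 0. Libraries did not overlap for 6 of them: Ifi27, Parp10, Helz2 and Plscr1, lower in KO, and Lgals9 and Ifi30, higher in KO. That is close to the 4.07% and 3.68% of all genes without overlap in those directions. Ifi27 had the smallest unadjusted p, 0.0117 (adjusted p = 0.9999 by edgeR), at 95.2, 112 and 96.96 CPM in KO 1 to 3, against 142, 135 and 125 CPM in WT 1 to 3. Like its relative Ifi27l2a, it was lower in every KO library than in every WT library. Oas1b, the next by p, was at 9.57, 7.48 and 16.1 CPM in KO 1 to 3, against 24.1, 13.8 and 20.7 CPM in WT 1 to 3. The most abundant of the 85 was Shisa5, at 2306, 2747 and 2896 CPM in KO 1 to 3, against 3087, 2745 and 2522 CPM in WT 1 to 3, followed by Ms4a4b, at 939, 1043 and 1107 CPM in KO 1 to 3, against 1124, 1002 and 931 CPM in WT 1 to 3, and both overlapped between genotypes.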

How the data were processed

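RNA was measured in 3 KO and 3 WT Treg libraries. Per the labels' protocols, RNA was amplified with a SMARTer ultra-low-input kit, which adds PCR noise to scarce genes, and read in single 50-base reads on a HiSeq 2000. The submitters' processing notes name bcl2fastq 2.19.0.316, STAR 2.3, featureCounts and mm10. No source used here names the gene annotation, strand setting or counting options. The authors deposited 1 table of raw counts per library, with 53379 Ensembl identifiers. Symbols and exon lengths came from GENCODE M21, which matched 53274 of them.

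Counts were tested with edgeR 4.0.16 in R 4.3.3 (filterByExpr, TMM scaling, robust quasi-likelihood test), with Benjamini-Hochberg adjustment over the 20475 genes that passed and a threshold of 0.05. CPM uses TMM library sizes, and RPKM divides CPM by exon length in kilobases. Log2 differences are KO minus WT. Values within a table number were taken from log2(CPM + 0.5). Alternatives used DESeq2 1.42.0 and limma 3.58.1, other filters and scalings, and each library left out. The test was checked on simulated counts, where edgeR missed the 2-fold changes that were put in and found part of the 4-fold ones. DESeq2 found part of both and also called unchanged genes. At 2-fold it called more unchanged genes than changed ones, so calls by DESeq2 alone are to be read with caution. The p-values of single genes named beside edgeR are edgeR's.

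Named genes were Junb, the 10 members of highest mean CPM, the 8 of smallest p, any without overlap, Irf7, Irf9, Stat2, Usp18 and Isg15, and from each pathway list the 2 of smallest p and the 2 of highest CPM. A result for 1 gene that this rule names is not reported here. Other genes with values, such as Ifit3, Ifit3b and Rsad2, were chosen after their values were seen. The members and lists were chosen with earlier results of these data known. Without a strand setting, reads of 9 members that overlap a gene on the opposite strand may include reads of that gene, among them Irf7, Usp18, Parp9, Dtx3l, Ifi35 and Dhx58.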

Additional observations from a re-analysis of the deposited data

How the results depend on the processing

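No member was called by edgeR's quasi-likelihood test, DESeq2 or limma-voom in the main fit or under any of the 14 alternatives, and genes were called only by DESeq2, 63 in all. At an unadjusted p under 0.05, edgeR had 0 members, against 590 of all 20475 genes. DESeq2 had 3 members, against 1208 of 32929 genes, and limma-voom had 1, against 750 of 20475. The edgeR fit without WT 3 had 11 members, against 747 of 21405 genes. The count of members with a lower mean in KO lay between 34 and 38 under other scalings, filters, tools and weights, at 26 with the table number as a term, and between 26 and 43 when 1 library was left out. The median log2 difference lay between -0.33 and -0.055 with 1 library left out.

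With the replicate number as a block, 0 members and 0 genes were called, 35 members had a lower mean and the median was -0.15. The labels do not say that the numbers pair libraries. Same-numbered libraries deviated from their group means with correlations of -0.0948, 0.188 and 0.0354 over genes. The value of 0.188, for KO 2 and WT 2, was the largest of any KO library with any WT library. With 3 libraries a group, such values cannot decide whether libraries were paired.

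Of the 44 members 22 kept their sign under all 14 alternatives, and 22 changed it at least once, all with values that passed no test. The cause was not tested. With the table number as a term the log2 difference was 0.026 for Ifit3b, 0.072 for Irf7, 0.32 for Stat2, 0.16 for Ifih1, 0.069 for Dhx58, 0.001 for Rtp4, 0.072 for Ifi209, 0.046 for Parp9, 0.053 for Slfn1 and 0.062 for Slfn5. With library quality weights it was -0.059 for Ifit2, -0.012 for Irf9, -0.097 for Ddx58, 0.073 for Bst2, -0.044 for Trim30a and 0.014 for Slfn5. Trim30a was at -0.001 with DESeq2's size factors and at -0.004 with no filter or a filter of 1 CPM in 3 libraries. Stat2 was at 0.004 and Slfn5 at 0.012 with limma-voom, and Slfn5 was at 0.003 with the replicate block. With 1 library left out, the log2 difference ran from -0.089 to 0.34 for Mx1, -0.16 to 1.29 for Rsad2, -0.33 to 0.27 for Stat2, -0.13 to 0.055 for Slfn1, -0.33 to 0.11 for Irf7, -0.33 to 0.14 for Ifih1, -0.24 to 0.080 for Bst2, -0.27 to 0.13 for Ifi209, -0.48 to 0.21 for Parp9, -0.37 to 0.12 for Eif2ak2, -0.18 to 0.20 for Slfn5, -0.14 to 0.032 for Ly6e, -0.30 to 0.31 for Ifit2, -0.031 to 0.12 for Irf9, -0.20 to 0.16 for Ddx58, -0.094 to 0.48 for Ifi204, -0.19 to 0.15 for Trim30a, -0.21 to 0.041 for Samhd1 and -0.88 to 0.20 for Oasl1.

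Counts of at least 41 per member and library limit these values less than the spread between libraries does, which over all genes gave a common coefficient of variation of 51%.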
